A study of Mus musculus with 6 samples.

Results

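Amino acid transporter genes were read in pressure-loaded mouse hearts with and without cardiac over-expression of the adenosine A2a receptor. The genes were chosen by symbol: every gene of the SLC1, SLC6, SLC7, SLC36, SLC38 and SLC43 families, and the heavy chains Slc3a1 and Slc3a2, with a probe set (a row of the array's value table) that the annotation ties to exactly 1 gene. That gave 64 genes of the 19938 genes read on the array, from 66 rows. Where a gene had several rows, the one with the highest mean over all hearts was used. Each gene kept its symbol in RefSeq. Of the 64, 62 encode carriers or heavy chains. The symbols also take in Slc7a6os and Slc6a19os, opposite-strand genes that are no carriers, and SLC6 carriers of other cargo, such as monoamines and creatine.

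Amino acids cross membranes through these carriers in a few ways. Some are driven by sodium or protons, and others exchange one amino acid for another, so that a cell can trade glutamine for leucine or glutamate for cystine. The exchangers of the SLC7 family need a heavy chain of the SLC3 family to reach the membrane. In many cells the transcription factor ATF4 raises several of these genes when amino acids run short, and the mTORC1 kinase complex reads the supply at the lysosome. Heart muscle is known for high stores of taurine, creatine and glutamine, each with a carrier among these families.

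The hearts came from 6 male mice of the FVB strain, 3 wild type and 3 A2a-R transgenic littermates, each on 1 Affymetrix Mouse Gene 1.0 ST array. All were operated at 8 weeks of age by transverse aortic constriction (TAC), a narrowing of the aorta that loads the left ventricle, and hearts were taken 14 weeks later. The transgene was cardiac-specific and inducible, and the labels name neither its promoter nor the inducing agent and its timing. Both groups carried the pressure load and no unoperated heart was analysed, so the receptor's effect and its interplay with the load cannot be told apart. Adora2a itself was not analysed here, so the labels have no check from the targeted gene.

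Values are log2 RMA values, in which a step of 1 is a doubling. The median of an array lay between 6.83 and 6.89, and arrays of the same group correlated at 0.9958 to 0.9973 across genes, which are not independent replicates. The 15 cardiomyocyte markers were bright in every heart (gene means 10.67 to 14.02), and none passed the test in either direction in limma, with 1 of them at an unadjusted p below 0.05. Probe sets differ in affinity, so levels are not compared between genes. As a guide to dim signal, 95% of 1035 rows for olfactory receptors, a family used mainly in the nose, had a mean below 6.31. Of the 64 genes 37 lay above that level and 27 below it.

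Across the transporter genes, Slc7a11 and Slc7a1 rose in the transgenic hearts and no gene fell. The test was limma with p-values adjusted by Benjamini-Hochberg over all 21789 rows with 1 gene, at a threshold of 0.05. It called 2 of the 64 genes (3.12%), against 0.993% of all genes; 0.547% of all genes rose and 0.446% fell. At an unadjusted p below 0.05 there were 14 of 64 (21.9%), 9 higher and 5 lower, beside 14.6% of all genes, of which 6.32% were higher and 8.26% lower. Among the 37 brighter genes 13 were below that p (35.1%), beside 16.4% of all genes above the same level, and 1 was called (2.7%, beside 1.35%). At an adjusted p below 0.10 there were 3 of the 64, with Slc38a2, and 2.22% of all genes. The 2 groups did not overlap in 19 of the 64 (29.7%), against 20.2% of all genes. In 13 of the 19 the transgenic hearts were higher and in 6 lower, beside 7.79% and 12.4% of all genes. The median log2 difference of the 64 was 0.035, with quartiles of -0.04 and 0.12, and that of all genes was -0.01.

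**Figure D1:**
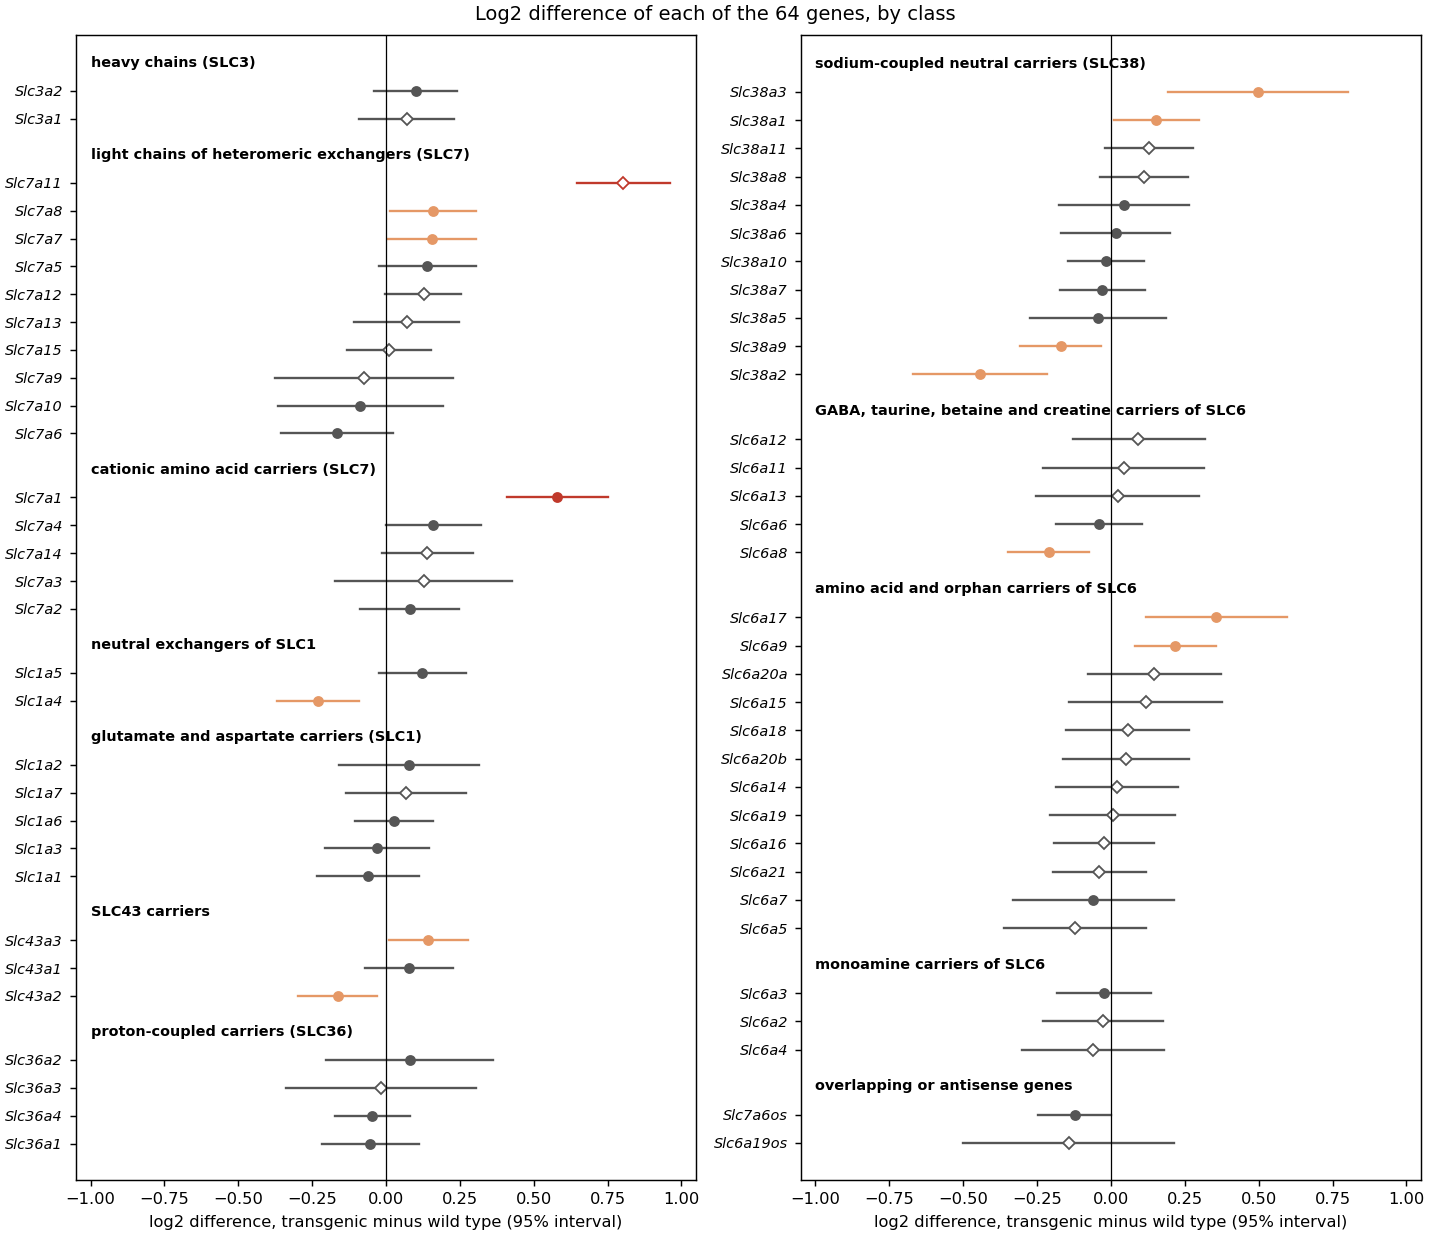
Log2 difference (transgenic minus wild type, n = 3 hearts each) of each of the 64 genes on the horizontal axis, by class, with the limma 95% interval as a bar. Red marks an adjusted p below 0.05, orange an unadjusted p below 0.05, grey neither; open diamonds are genes whose mean lay below the olfactory receptor level of 6.31. Slc7a11 at 0.80 and Slc7a1 at 0.58 stand to the right, and Slc38a2 at -0.44 is the lowest.

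Slc7a11 (probe set 10498024) encodes the light chain of the exchanger that takes up cystine, the raw material of glutathione, in return for glutamate. Its values were 4.90, 4.96 and 4.93 in the wild-type hearts and 5.64, 5.71 and 5.85 in the transgenic hearts. The transgenic hearts were all higher, and the gap between the groups was wider than the range within either. The mean rose from 4.93 ± 0.03 to 5.73 ± 0.11 (SD, n = 3 each), a log2 difference of 0.80 ± 0.07 (SE; 95% interval 0.65 to 0.96, limma adjusted p = 0.00286). It passed without any 1 of the 6 arrays (limma adjusted p 0.00379 to 0.021). All 6 values lay below the olfactory receptor level of 6.31, and the wild-type mean lay near the olfactory rows' median of 4.84. Differences of such dim probe sets are known to be compressed, so no fold is given for this gene.

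Slc7a1 (probe set 10535852) encodes a carrier that brings in arginine, lysine and ornithine and feeds nitric oxide synthesis. Its values were 8.76, 8.84 and 8.99 in the wild-type hearts and 9.37, 9.47 and 9.49 in the transgenic hearts. The groups did not overlap, and the wild-type hearts were spread more widely. The mean rose from 8.86 ± 0.12 to 9.44 ± 0.06 (SD, n = 3 each), 1.49-fold, or a log2 difference of 0.58 ± 0.07 (SE; 95% interval 0.41 to 0.75, limma adjusted p = 0.0126). The call was lost without wild-type replicate 2 (limma adjusted p = 0.0714, difference 0.57) and without transgenic replicate 3 (0.0583, difference 0.56).

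**Figure D2:**
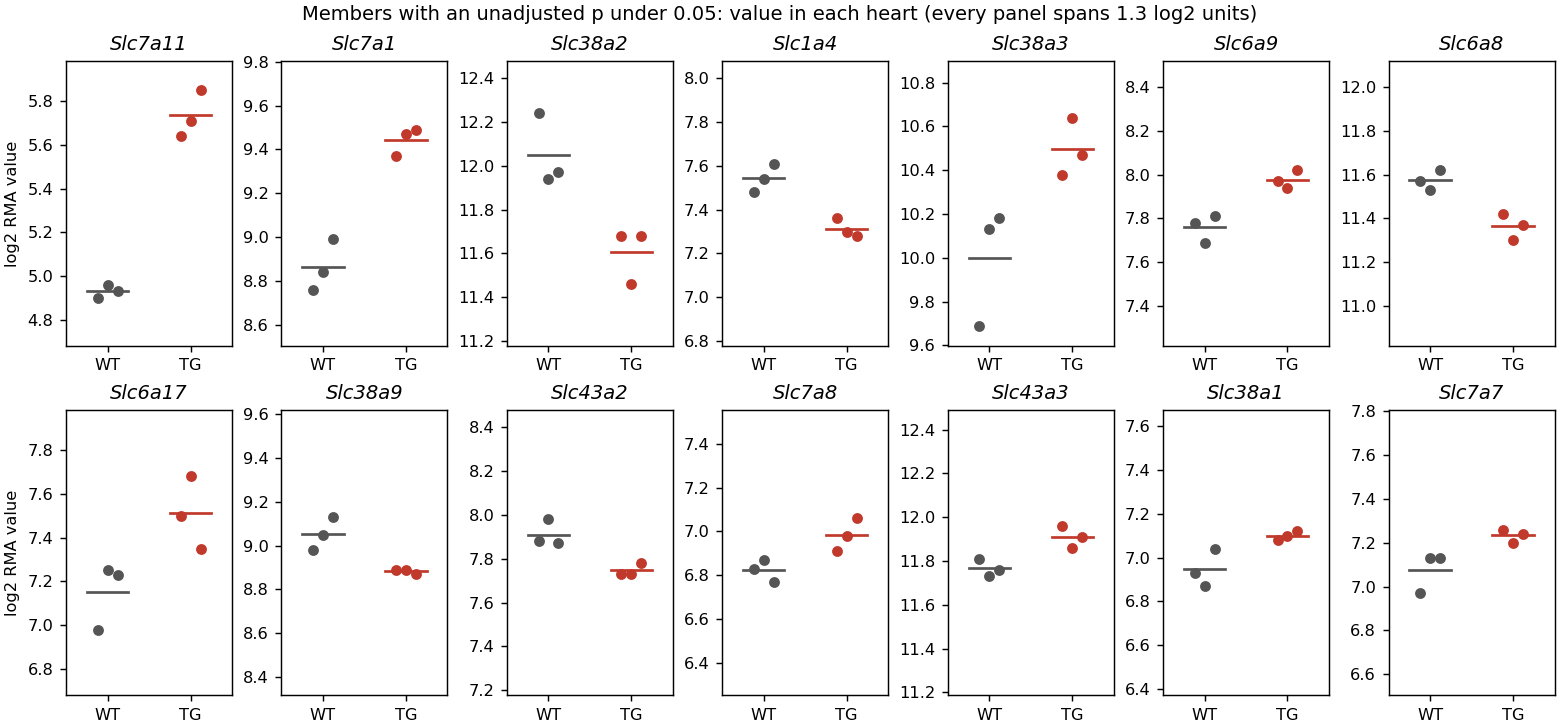
Log2 RMA value in each heart for the 14 genes with an unadjusted p below 0.05, wild type (WT, grey) and transgenic (TG, red), 3 hearts each, with the group mean as a line; every panel spans the same log2 distance. The groups do not overlap in any of the 14, which were picked by their p, so this is no separate support. The widest gap is that of Slc7a11, from 4.96 to 5.64.

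ATF4 binds with a partner to an element whose core can be written TGATGNAA. The start regions of both risen genes are therefore shown with that of Asns, an ATF4 target that also rose. Those of Slc1a4 and Slc38a2, carriers known to answer amino acid shortage, are shown too. Both were lower here but did not pass (limma adjusted p = 0.14 and 0.0964). RefSeq windows (build GRCm38.p6) of 250 bases before to 50 after a gene's start were searched on both strands; 47 of the 64 genes matched, with 68 windows. Below are the 100 bases before and 20 after the start, 5′ to 3′ on the gene's strand, with matches to the core in capitals. Slc7a11 is at chr3:50443594-50443713 (minus strand), Slc7a1 at chr5:148399885-148400004 (minus, the window farther upstream of 2), Slc1a4 at chr11:20332694-20332813 (minus), Slc38a2 at chr15:96699709-96699828 (minus) and Asns at chr6:7693190-7693309 (minus).
Slc7a11: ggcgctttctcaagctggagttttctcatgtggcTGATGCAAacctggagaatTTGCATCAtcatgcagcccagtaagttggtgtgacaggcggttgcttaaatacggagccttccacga
Slc7a1: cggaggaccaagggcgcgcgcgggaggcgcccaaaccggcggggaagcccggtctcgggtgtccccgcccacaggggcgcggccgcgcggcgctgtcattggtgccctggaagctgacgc
Slc1a4: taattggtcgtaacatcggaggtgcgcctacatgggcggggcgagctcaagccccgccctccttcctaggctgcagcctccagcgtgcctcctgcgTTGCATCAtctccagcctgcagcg
Slc38a2: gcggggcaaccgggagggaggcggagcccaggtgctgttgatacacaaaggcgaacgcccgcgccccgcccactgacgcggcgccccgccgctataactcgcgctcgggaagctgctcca
Asns: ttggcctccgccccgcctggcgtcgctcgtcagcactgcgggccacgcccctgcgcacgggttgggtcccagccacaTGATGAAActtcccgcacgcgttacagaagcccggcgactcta

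The Slc7a11 window held 2 matches on opposite strands, starting 66 and 47 bases before the start. Slc1a4 held 1 that spans its start, and Asns held 1. In the stretches of Slc7a1 and Slc38a2 these letters were not found, which says nothing about elements elsewhere in those genes. Of all 32851 windows 3.97% held the core, and 0.07% held it more than once. Of the 68 transporter windows 5 held it (7.35%), from 4 genes: Slc7a11, Slc1a4, Slc7a7 (also more than once in 1 window) and Slc6a21. The cyclic AMP response element TGACGTCA was found in 1 transporter window (1.47%), of Slc38a6, and in 1.79% of all windows. The antioxidant response element TGACNNNGC was found in 11 transporter windows (16.2%) from 9 genes, Slc7a1 and Slc38a2 among them and Slc7a11 not, and in 12.4% of all windows. A match of letters is a description of the sequence, not of binding. Bases outside the windows were not searched, so a motif not found, in Slc7a11 too, says nothing about elements elsewhere in the gene.

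The heavy chains and the other light chains did not pass. Slc3a2, the heavy chain that pairs with most light chains, Slc7a11 included, was at 10.86, 10.89 and 10.87 in wild-type and 11.05, 10.89 and 10.98 in transgenic hearts. The groups touched at 10.89, and the log2 difference was 0.10 ± 0.06 (SE; 95% interval -0.04 to 0.24, limma adjusted p = 0.497). Slc3a1, the kidney-type heavy chain, was at 5.90, 5.76 and 5.97 in wild-type and 6.0, 5.92 and 5.92 in transgenic hearts, with overlapping groups and a difference of 0.07 ± 0.07 (interval -0.09 to 0.23, limma adjusted p = 0.705). The interval of Slc3a2 stayed below the lower bound for Slc7a11, 0.65. So did that of Slc3a1, but all its values lay below the olfactory receptor level, where differences are known to be compressed. Among 10 light chains 1 rose and 9 did not pass; 7 were higher and 3 lower, with a median difference of 0.10.

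Slc7a8, which carries neutral amino acids, was at 6.83, 6.87 and 6.77 in wild-type and 6.91, 6.98 and 7.06 in transgenic hearts. Each transgenic heart was higher, with a difference of 0.16 ± 0.06 (SE; interval 0.01 to 0.30, limma adjusted p = 0.296). Slc7a7, which trades cationic for neutral amino acids and is known from macrophages, differed by 0.16 ± 0.06 (interval 0.01 to 0.31, limma adjusted p = 0.315). It was at 6.97, 7.13 and 7.13 in wild-type and 7.26, 7.20 and 7.24 in transgenic hearts, a small gap with no overlap. Slc7a5, the leucine carrier that supplies mTORC1, differed by 0.14 ± 0.07 and Slc7a6 by -0.17 ± 0.08; in both the groups overlapped. Slc7a10, Slc7a9, Slc7a12, Slc7a13 and Slc7a15 differed by -0.09 to 0.13. Of the 5 cationic carriers, Slc7a1 rose and 4 did not pass: Slc7a4 differed by 0.16, Slc7a14 by 0.14, Slc7a3 by 0.13 and Slc7a2, the carrier induced with inflammation, by 0.08 (interval -0.09 to 0.25). All 5 of that class had a difference above 0, beside 9013 of all 19938 genes. Slc7a14 and Slc7a3 lay below the olfactory receptor level, where 19 of the 27 transporter genes were higher.

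Of the 11 sodium-coupled neutral carriers of the SLC38 family none passed in limma. An unadjusted p below 0.05 was found for 4, 2 higher and 2 lower, beside 14.6% of all genes. Slc38a2 (probe set 10431894), a glutamine and alanine carrier that cells raise when amino acids are short, was at 12.24, 11.94 and 11.97 in wild-type and 11.68, 11.46 and 11.68 in transgenic hearts. Every transgenic heart was lower, and wild-type replicate 1 stood highest. The log2 difference was -0.44 ± 0.10 (SE; 95% interval -0.67 to -0.22, limma adjusted p = 0.0964), and -0.35 without wild-type replicate 1. It passed when dim rows were left out before the fit (limma adjusted p = 0.0405 and 0.0466 under 2 limits) and with a trended and robust prior (0.0227). Those settings also called more rows over all genes, 493, 438 and 579 against 209. Slc38a2 did not pass in any of the 6 fits that left out 1 array (limma adjusted p 0.167 to 0.187). Nor did it pass with the replicate block (0.0892), a further quantile normalization (0.117), centred arrays (0.0607), array weights (0.0868) or gene means (0.0918).

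Slc38a3 (probe set 10596718), a glutamine carrier that can run in both directions, was at 9.69, 10.13 and 10.18 in wild-type and 10.38, 10.64 and 10.47 in transgenic hearts. The groups did not overlap, but wild-type replicate 1 lay well below the others. The log2 difference was 0.50 ± 0.13 (SE; 95% interval 0.19 to 0.80, limma adjusted p = 0.146), and 0.34 without wild-type replicate 1. Slc38a9, the lysosomal arginine sensor of mTORC1, was at 8.98, 9.05 and 9.13 in wild-type and 8.89, 8.89 and 8.87 in transgenic hearts at its brighter probe set, each transgenic heart lower. It differed by -0.17 ± 0.06 there (interval -0.31 to -0.03, limma adjusted p = 0.25) and by -0.01 ± 0.07 at the other. Slc38a1, a glutamine carrier that lies next to Slc38a2 on the chromosome, was at 6.93, 6.87 and 7.04 in wild-type and 7.08, 7.10 and 7.12 in transgenic hearts at its brighter probe set, each transgenic heart higher. It differed by 0.15 ± 0.06 there (interval 0.01 to 0.30, limma adjusted p = 0.31) and by 0.03 ± 0.09 at the other. Slc38a4, the neighbour on the far side of Slc38a2, differed by 0.04 ± 0.10, so the 3 adjacent genes had differences of 0.15, -0.44 and 0.04. Slc38a5, Slc38a6, Slc38a7, Slc38a8, Slc38a10 and Slc38a11 differed by -0.04 to 0.13.

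In the SLC1 family none of 7 carriers passed in limma. Beside 14.6% of all genes, 1 of the 7 had an unadjusted p below 0.05. That was Slc1a4, which exchanges serine, alanine and other small neutral amino acids. It was at 7.48, 7.54 and 7.61 in wild-type and 7.36, 7.30 and 7.28 in transgenic hearts, lower in each, with a log2 difference of -0.23 ± 0.06 (SE; 95% interval -0.37 to -0.09, limma adjusted p = 0.14). Its relative Slc1a5, the main glutamine exchanger of growing cells, differed by 0.12 ± 0.06 with overlapping groups (interval -0.02 to 0.27). The 5 glutamate and aspartate carriers differed by -0.06 (Slc1a1) to 0.08 (Slc1a2), all with overlapping groups. Slc1a3, a glutamate carrier known from glia, was at -0.03 ± 0.08 (interval -0.20 to 0.14).

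The carriers that take taurine and creatine into muscle were among the bright members. Slc6a8, the creatine carrier, was at 11.57, 11.53 and 11.62 in wild-type and 11.42, 11.30 and 11.37 in transgenic hearts. All transgenic hearts were lower, by a mean of -0.21 ± 0.06 (SE, 95% interval -0.35 to -0.07, limma adjusted p = 0.167). Among the alternatives tried, the gene passed only with a trended and robust prior (limma adjusted p = 0.0439). Slc6a6, the taurine carrier, was at 11.18, 11.07 and 11.02 in wild-type and 11.06, 11.01 and 11.08 in transgenic hearts. Its groups overlapped and the difference was -0.04 ± 0.06 (interval -0.18 to 0.10, limma adjusted p = 0.828). The GABA and betaine carriers Slc6a11, Slc6a12 and Slc6a13 were below the olfactory receptor level, with differences of 0.02 to 0.09.

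Of 12 amino acid and orphan carriers of the SLC6 family none passed in limma. Beside 14.6% of all genes, 2 of the 12 had an unadjusted p below 0.05, both higher. Slc6a9, a glycine carrier, was at 7.78, 7.69 and 7.81 in wild-type and 7.97, 7.94 and 8.02 in transgenic hearts, higher in each, with a log2 difference of 0.22 ± 0.06 (SE; interval 0.08 to 0.35, limma adjusted p = 0.156). Slc6a17, a carrier of neutral amino acids known from synaptic vesicles, was at 6.98, 7.25 and 7.23 in wild-type and 7.50, 7.68 and 7.35 in transgenic hearts. The groups were separate by 0.10 at their closest, and the difference was 0.36 ± 0.10 (interval 0.12 to 0.60, adjusted p = 0.177). The other 10, 9 of them below the olfactory receptor level, differed by -0.12 (Slc6a5) to 0.15 (Slc6a20a). The monoamine carriers Slc6a2, Slc6a3 and Slc6a4, for noradrenaline, dopamine and serotonin, differed by -0.06 to -0.02, each with overlapping groups. Slc6a2 and Slc6a4 lay below the olfactory receptor level, as did 6 of the 11 neuron and glia markers. Those markers had a median difference of 0.06, and of 0.021 after a further quantile normalization.

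In the SLC43 family none of the 3 carriers passed in limma. An unadjusted p below 0.05 was found for 2, 1 higher and 1 lower, beside 14.6% of all genes. Slc43a3, a nucleobase carrier that is no amino acid carrier, was at 11.81, 11.73 and 11.76 in wild-type and 11.96, 11.86 and 11.91 in transgenic hearts. Slc43a2, a carrier of large neutral amino acids, was at 7.88, 7.98 and 7.87 in wild-type and 7.73, 7.73 and 7.78 in transgenic hearts. The first was higher in every transgenic heart, by 0.14 ± 0.06 (SE; interval 0.01 to 0.28, limma adjusted p = 0.302), and the second lower in every one, by -0.16 ± 0.06 (interval -0.30 to -0.03, adjusted p = 0.254). Slc43a1 differed by 0.08 ± 0.06 and its groups overlapped. The 4 proton-coupled carriers of the SLC36 family, of which Slc36a1 exports amino acids from the lysosome, differed by -0.05 to 0.08 and all overlapped. The opposite-strand genes Slc7a6os and Slc6a19os differed by -0.12 and -0.14; Slc7a6os adjoins Slc7a6, which differed by -0.17.

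**Figure D3:**
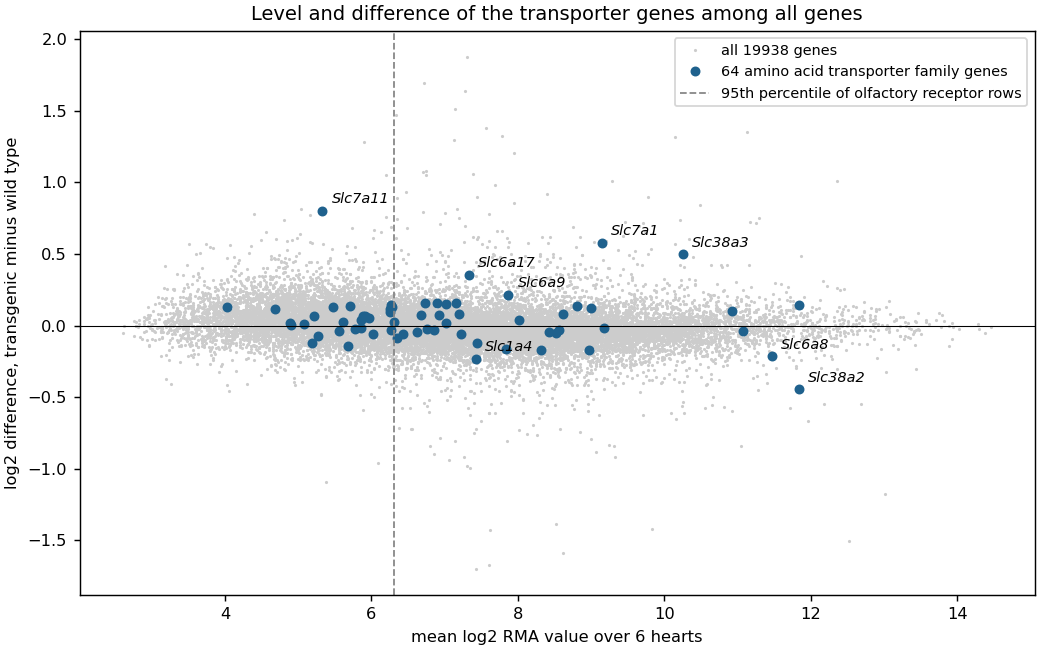
Mean log2 RMA value over the 6 hearts (horizontal) against the log2 difference, transgenic minus wild type (vertical), for all 19938 genes (grey) and the 64 transporter genes (blue); the dashed line is the olfactory receptor level, 6.31, and genes with an unadjusted p below 0.01 are named. Slc7a11 is the only named gene left of the line, and Slc38a2 and Slc6a8 lie at the bright end below 0.

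The hearts varied little in the families as a whole. The median deviation of the 64 genes from their own 6-heart mean was -0.02 to -0.005 in the wild-type hearts and 0.07, -0.05 and 0.05 in transgenic replicates 1, 2 and 3, so the groups overlapped. The median SE of a log2 difference was 0.0742 for the 64 genes and 0.0731 for all genes. For the 27 dim genes the median SE was 0.0903, against 0.0696 for the 37 brighter ones. Of the 27, Slc7a11 rose and 26 did not pass.

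Genes that work beside these carriers were read from 3 lists with 102 measured genes. Of 26 carriers of other families, among them the mitochondrial and lysosomal amino acid carriers, none passed in limma. At an unadjusted p below 0.05 were 3 of the 26, beside 14.6% of all genes. Slc25a38, which brings glycine into mitochondria for heme synthesis, differed by -0.29 ± 0.08 (SE, limma adjusted p = 0.151). Slc17a7, a glutamate carrier of synaptic vesicles, differed by 0.39 ± 0.13 (0.24). The list's median was 0.04.

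The list of the amino acid starvation response holds ATF4, kinases upstream of it, partners and targets; 1 of its 38 genes rose and none fell. Asns, asparagine synthetase, was at 7.53, 7.67 and 7.57 in wild-type and 8.18, 8.08 and 8.27 in transgenic hearts, well apart. Asns rose by 0.59 ± 0.07 (SE; limma adjusted p = 0.0101), 1.5-fold, and its adjusted p was 0.0504 without wild-type replicate 3. Mthfd2, a mitochondrial folate enzyme, differed by 0.45 ± 0.10 (adjusted p = 0.0987) and Ddit4, an mTORC1 inhibitor, by 0.41 ± 0.11 (0.157). In all, 7 of the 38 had an unadjusted p below 0.05, 3 higher and 4 lower, beside 14.6% of all genes, 6.32% higher and 8.26% lower. The groups did not overlap in 4 genes that were higher and 4 that were lower, beside 7.79% and 12.4% of all genes. The 4 lower ones were Vldlr (-0.21 ± 0.06, limma adjusted p = 0.142), Stc2 (-0.20 ± 0.06, 0.17), Eif2ak4 (-0.15 ± 0.05, 0.261) and Eif2ak3 (-0.14 ± 0.06, 0.334), each lower in all 3 transgenic hearts than in any wild-type heart. Eif2ak4 and Eif2ak3 are kinases that act upstream of ATF4, the first when amino acids run short. The remaining members ran from -0.39 (Atf3, overlapping groups) to 0.20 (Aldh1l2, groups apart). Among them were 0.01 (Atf4), 0.07 (Ddit3), 0.07 (Trib3), -0.11 (Chac1), -0.22 (Sesn2) and 0.01 (Psat1). These were named after their values were seen. The list's median was 0.01, with 20 genes higher and 18 lower (24 and 14 after a further quantile normalization). Of 38 genes of mTORC1 amino acid sensing none passed in limma, with 6 at an unadjusted p below 0.05, beside 14.6% of all genes. Their median was -0.04, and 26 were lower and 11 higher, but 20 lower and 18 higher after a further quantile normalization. Castor2, of the arginine sensor family, differed by 0.34 ± 0.07 (adjusted p = 0.0846) and Depdc5, a subunit of an mTORC1 inhibitor, by -0.18 ± 0.06 (0.202).

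**Figure D4:**
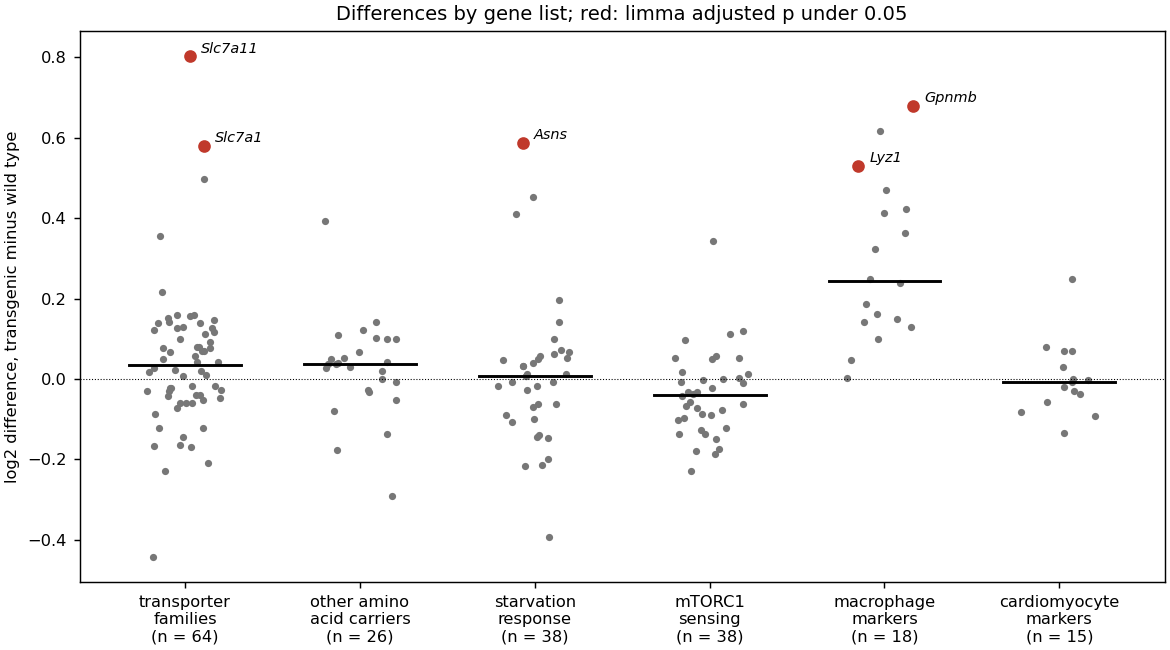
Log2 difference (transgenic minus wild type) of every gene in the transporter families, the 3 related lists and 2 cell type lists; each point is a gene, the bar is the list's median, and red points have a limma adjusted p below 0.05. Slc7a11, Slc7a1 and Asns are red in the first 4 columns, and the macrophage markers sit higher as a list (median 0.245) than the transporters (0.035).

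Hearts hold several cell types, and in whole-heart RNA more cells of a type and more RNA per cell cannot be told apart. Macrophages use Slc7a11 and Slc7a7. All 18 of 18 macrophage markers had a difference above 0, the smallest 0.003 (Cd163), beside 9013 of all 19938 genes. Gpnmb (0.68 ± 0.09) and Lyz1 (0.53 ± 0.08) rose (limma adjusted p = 0.015 and 0.0271). The other 16 markers did not pass, and 0.993% of all genes were called. Of the 18, 10 had an unadjusted p below 0.05, all higher, beside 6.32% of all genes higher at that p. In 11 of the 18 every transgenic heart was above every wild-type heart, beside 7.79% of all genes. Averaged over the 18 markers, the wild-type hearts lay at 8.03 to 8.17 and the transgenic ones at 8.37 to 8.45; gene means ran from 6.34 to 10.79. The markers' median difference was 0.245, beside 0.80 for Slc7a11 and 0.58 for Slc7a1, and the part of macrophages in either rise was not tested.

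The 9 other cell type lists had medians between -0.15 (8 atrial markers) and 0.06 (neuron and glia markers). The 12 endothelial markers, from cells that use Slc7a1, had a median of -0.07, with 10 of 12 lower and none passing. Medians were 0.00 for 12 fibroblast, 0.04 for 11 smooth muscle and pericyte, 0.01 for 12 T, NK and B cell, -0.04 for 13 neutrophil and mast cell, -0.07 for 7 adipocyte and -0.03 for 4 red cell markers. Of 10 listed red cell markers 4 were measured, no haemoglobin gene among them. Single markers passed in 4 of these lists, beside 0.993% of all genes called: Acta2 and Uchl1 rose, and Nppa and Alas2 fell. Their part in the transporter values was not tested.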

How the data were processed

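Total RNA of each heart was isolated with Trizol and 100 ng labelled per array, per the labels' protocols. The authors deposited log2 values. RMA and Partek are named per the submitters' processing notes, without versions, settings or a genome build. RMA gives arrays like distributions, so a global shift is not visible, and it compresses dim signals. Rows were named from GEO's platform annotation: 21789 of 28853 rows had 1 gene symbol, 1621 several and 5443 none. All 21789 were fitted with limma 3.58.1 (R 4.3.3; lmFit, eBayes, no covariate, transgenic minus wild type), with Benjamini-Hochberg adjustment across those rows and a threshold of 0.05. SE and 95% intervals come from that fit, and 3 arrays per group limit the precision. The code was tested on simulated data. Equal replicate numbers are not tied to a litter or day in the labels, so hearts were not paired. No label says how many litters the mice came from. The p-values set each difference against the spread between these hearts, which limma moderates with the spread over all rows.

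The gene families, the lists of related genes and markers, and the motifs were chosen with earlier results of these data known. Full statistics were given for genes with an adjusted, then an unadjusted p below 0.05, both heavy chains and the 6 brightest members; of the related lists, for called genes or else the 2 of smallest p. Other named genes were chosen after their values were seen. Alternatives were a replicate block, other scalings, 2 filters on dim rows, another prior, array weights, gene means, another threshold and leaving out each array.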

Additional observations from a re-analysis of the deposited data

How the results depend on the processing

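Slc7a11 and Slc7a1 were both called with the replicate block, a further quantile normalization, arrays centred on their medians, array weights, a trended and robust prior and the mean over a gene's rows. Slc7a11 has no value where dim rows are left out; there the 2 called genes were Slc7a1 and Slc38a2. Of the transporter genes 4 were called with the trended and robust prior (Slc38a2 and Slc6a8 joined), and 1 to 2 without any 1 array. Rows changed over all genes were 209 (113 higher, 96 lower). They were 493 (184 higher, 309 lower) without the dimmest 40% of rows, 438 (173 and 265) without rows under the olfactory receptor level, 579 (240 and 339) with the trended and robust prior, 476 (230 and 246) at a threshold of 0.10, and 84 to 147 without any 1 array. In the 3 related lists, where Asns was the 1 call, 2 genes were called with quantile normalization, with centred arrays and with array weights. There were 3 with either filter and at 0.10, 4 with the trended and robust prior, and 0 to 3 without any 1 array. The median of the transporter genes stayed between 0.007 and 0.061 without any 1 array, and was 0.055 with centred arrays, where all genes had a median of 0.01. The median of the 12 amino acid and orphan SLC6 carriers (0.035) and that of the 5 SLC6 carriers of GABA, taurine, betaine and creatine (0.023) turned to -0.006 and -0.011 after a further quantile normalization. The difference of Slc6a6 ran from -0.075 to 0.005 without any 1 array, turning sign without wild-type replicate 1. The cause of these shifts was not tested.

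By the titles' numbers, deviations of same-numbered hearts from their group means correlated at 0.155, -0.0113 and -0.104, and other pairs at -0.207 to 0.234. With 3 hearts per group these deviations are tied to each other, so the values cannot decide whether hearts were paired. The descriptions number the wild-type hearts 3 to 5 where the titles have 1 to 3, and the block used the titles' numbers. With the number as a block, 97 rows were called over all genes, 2 transporter genes and 0 genes of the related lists (Asns limma adjusted p = 0.0536).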
